A study of Mus musculus with 4 samples.

Results

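Aminoacyl-tRNA synthetases are the enzymes that join each amino acid to its transfer RNA, the step that sets which amino acid a codon is read as. Mammalian cells keep one set for translation in the cytosol and a second, also encoded in the nucleus, that is imported into mitochondria to charge the transfer RNAs of the mitochondrial genome. Gars and Kars (the glycine and lysine enzymes) serve both compartments from 1 gene each. A plasma cell secretes large amounts of immunoglobulin and so makes heavy use of the cytosolic set. The genes described here are 35 synthetase genes, taken by symbol from the 22722 genes in the count tables. Of these, 20 encode cytosolic enzymes or their subunits and 15 encode mitochondrial enzymes, whose symbols end in 2. All 35 were found, and all 35 passed the filter on low counts that left 11027 genes for testing.

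The RNA came from 4 cultures of MPC11, a mouse plasmacytoma line. In 2 cultures a lentivirus (pLKO.1) carried a short hairpin RNA against Ell2, which encodes an elongation factor of RNA polymerase II (Ell2-KD). In the 2 controls the same vector carried a hairpin against GFP (shGFP). All 4 were exposed to virus for 18 h, selected with puromycin for 72 h and expanded for 72 h. A single hairpin against Ell2 was used, so an effect of its sequence on other transcripts cannot be told apart from an effect of Ell2. The submitters measured the Ell2 transcript and the ratio of membrane to secreted immunoglobulin before sequencing, so the fall of Ell2 is no independent result. Whether the 2 cultures of a group were transduced apart is not stated, although the labels name them biological replicates, and p-values measure only the spread between these samples. Fewer cells of a state and less RNA per cell cannot be told apart in such bulk samples.

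Library totals ran from 3496471 counts (Ell2-KD replicate 2) to 13914488 (Ell2-KD replicate 1). Ell2 stood at 938 and 996 CPM with shGFP against 87.8 and 115 CPM with Ell2-KD, where CPM are counts scaled to library size with TMM factors. Of 10 plasma cell markers 9 were found, and all 9 had negative log2 changes, with a median of -0.79. These ran from -4.56 for Tnfrsf17 to -0.05 for Xbp1, and the groups overlapped for 2 of the 9. In the edgeR test described below, 0 of the 9 had an adjusted p below 0.05 (smallest 0.183). As CPM of all counts, 12 T and NK cell markers summed to 11.4 and 8.84 in the shGFP libraries and 5.75 and 14.3 in Ell2-KD, 12 myeloid markers to 13.3 and 9.83 against 8.77 and 36.6, and 8 erythroid and megakaryocyte markers to 5.41 and 2.95 against 14.5 and 21.5. Much of these sums came from single genes. Itga2b stood at 5.13 and 1.59 CPM with shGFP against 13.8 and 21.1 CPM with Ell2-KD. Cd68, of the myeloid list, stood at 11.6 and 6.15 against 3.62 and 31.6 CPM. Cd2, of the T and NK list, stood at 9.30 and 3.17 against 4.68 and 9.37 CPM. Whether any such cells were present was not tested. Counts of 0 in all 4 libraries were found for Trat1, S100a8, Hbb-b1 and Pf4. Stromal and epithelial markers summed to between 452 and 630 CPM, nearly all from Epcam, an epithelial adhesion molecule (444 to 629 CPM).

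The median cytosolic synthetase transcript was several times more abundant than the median mitochondrial one, though the sets overlapped. Levels between genes are compared here as CPM per kilobase of transcript, with lengths taken from a reference annotation of a later genome build. The median cytosolic gene stood at 82.5 and 79.0 CPM per kilobase with shGFP against 74.7 and 77.4 with Ell2-KD. The median mitochondrial gene stood at 13.98 and 10.1 with shGFP against 9.27 and 11.7 with Ell2-KD. The ratio of the medians was therefore 5.90 and 7.83 with shGFP against 8.06 and 6.60 with Ell2-KD, so the groups overlapped.

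**Figure D1:**
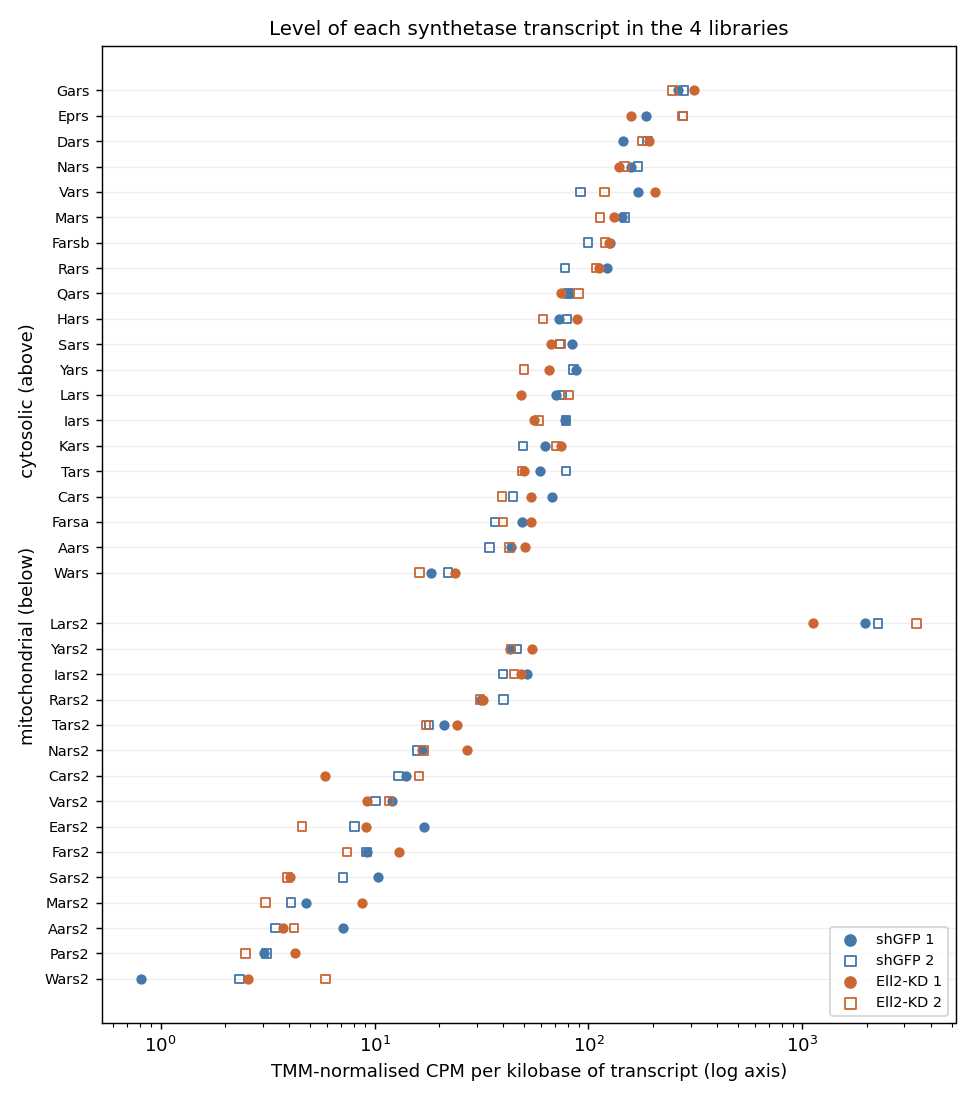
Level of each of the 35 synthetase transcripts in each library, as TMM-normalised CPM per kilobase of transcript on a log axis, with cytosolic genes above and mitochondrial genes below. Circles are replicates numbered 1 and squares those numbered 2; Lars2 lies between 1119.5 and 3425, to the right of every other gene, and Wars is the lowest cytosolic gene.

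Among cytosolic genes the mean over the 4 libraries ran from 20.1 CPM per kilobase for Wars to 275 for Gars, and 17 of 20 lay above 50. Gars, the glycine enzyme, ran from 247 to 312 in single libraries. Eprs, whose product joins the glutamate and proline activities in 1 chain, ran from 158 to 276, and Dars, the aspartate enzyme, from 145 to 191. These 3 led the cytosolic order by transcript length, and the range of each overlapped that of the next. Phenylalanine is charged by an enzyme built from products of 2 genes, and the catalytic subunit gene Farsa stood at 36.6 to 53.9, below Farsb at 99.6 to 126. Wars, the tryptophan enzyme, which is also known as an interferon-induced gene, stood at 18.4 and 22.01 CPM per kilobase with shGFP against 23.7 and 16.2 with Ell2-KD, below every other cytosolic gene in every library.

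Of the mitochondrial genes only Lars2 lay above 50 CPM per kilobase on average. Yars2, Iars2 and Rars2 (tyrosine, isoleucine and arginine) followed with means of 47.0, 46.1 and 33.7, and the ranges of Yars2 and Iars2 overlapped. At the foot of the list stood Aars2, Pars2 and Wars2 (alanine, proline and tryptophan), with means of 4.63, 3.23 and 2.91. With coding length in place of transcript length, Lars2 and Gars kept ranks 1 and 2, Dars and Nars came before Eprs, Wars stayed at rank 25 of 35, and the lowest was Aars2. By that length 19 cytosolic and 5 mitochondrial genes lay above 50, the latter being Lars2, Iars2, Yars2, Tars2 and Nars2.

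Lars2, the mitochondrial leucine enzyme, stood apart from the rest of the family. Its counts were 64239 and 44202 with shGFP against 61457 and 45556 with Ell2-KD. In CPM these were 7660.1 and 8771 with shGFP against 4359 and 13336 with Ell2-KD, which placed it at rank 3 of the 11027 tested genes by mean CPM. The depleted cells held both the lowest and the highest value, with the controls between them. In both groups Lars2 was higher in the replicate numbered 2 than in that numbered 1. Its share of all counts was 0.772% (95% Wilson interval 0.766 to 0.778) and 0.869% (0.861 to 0.877) with shGFP against 0.442% (0.438 to 0.445) and 1.30% (1.29 to 1.31) with Ell2-KD. These intervals cover counting error only. The log2 change between groups was 0.11 with a 95% confidence interval from -2.30 to 2.51. That interval is compatible with a rise, a fall or no change. Leaving out Ell2-KD replicate 2 gave -0.91 (edgeR adjusted p = 0.0146, with 1 depleted library left) and leaving out Ell2-KD replicate 1 gave 0.70 (0.0558).

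Lars2 exceeded its cytosolic partner Lars by 27.8-fold and 30.02-fold per kilobase with shGFP, and by 23.0-fold and 42.4-fold with Ell2-KD. In the reference annotation, its transcript of 3894 bases (2706 of them coding) shares 97 bases at 94.8% identity with AA474408 and 72 bases at 98.6% identity with Gm15564, transcripts of 2 other loci. Both stretches lie between bases 3233 and 3349 of the transcript. Whether reads of such transcripts were counted for Lars2 was not tested. Rmrp, the RNA of a mitochondrial RNA-processing RNase and 1 of 3 genes found from a list of RNAs tied to ribosomal RNA, stood at 301 and 2920.4 CPM with shGFP against 398 and 2267 CPM with Ell2-KD, high in both replicates numbered 2. Of the other 2, Gm5801 stood at 17.5, 9.92, 19.2 and 21.7 CPM in the same order and Rpph1 had no counts. The part of such RNAs in the level of Lars2 was not tested.

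Without Lars2, the mitochondrial synthetases together took 0.0791% (0.0772 to 0.0810) and 0.0673% (0.0651 to 0.0696) of counts in the controls. In the depleted cells they took 0.0842% (0.0827 to 0.0858) and 0.0674% (0.0647 to 0.0702). The cytosolic synthetases took 0.652% (0.647 to 0.657) and 0.645% (0.638 to 0.652) in the controls against 0.638% (0.633 to 0.642) and 0.609% (0.601 to 0.617) in the depleted cells. For the cytosolic sum both depleted libraries lay below both controls, by little, and for the mitochondrial sum they overlapped.

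Depletion of Ell2 moved no synthetase gene past the test. With edgeR's quasi-likelihood test and Benjamini-Hochberg adjustment over all genes, 0 of 35 had an adjusted p below 0.05, against 5 of 11027 genes (0.0453%), and their adjusted p ran from 0.811 to 0.999. DESeq2 also called 0 of 35. At an unadjusted edgeR p below 0.05 there was 1 (Yars, lower), where 5.82% of all tested genes lay (3.26% lower and 2.57% higher). With no filter on low counts that number was 0, where 765 of 19885 tested genes lay below 0.05. The number, or the gene behind it, changed when a single library was left out, and so did the count over all tested genes. Cytosolic changes had a median log2 value of -0.01, with 9 positive and 11 negative, and mitochondrial changes a median of 0.09, with 9 positive and 6 negative; over all genes the median was -0.00, with 5502 positive and 5525 negative. The contrast of the compartments, cytosolic minus mitochondrial median, was -0.10, and 0.06 without Ell2-KD replicate 1.

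**Figure D2:**
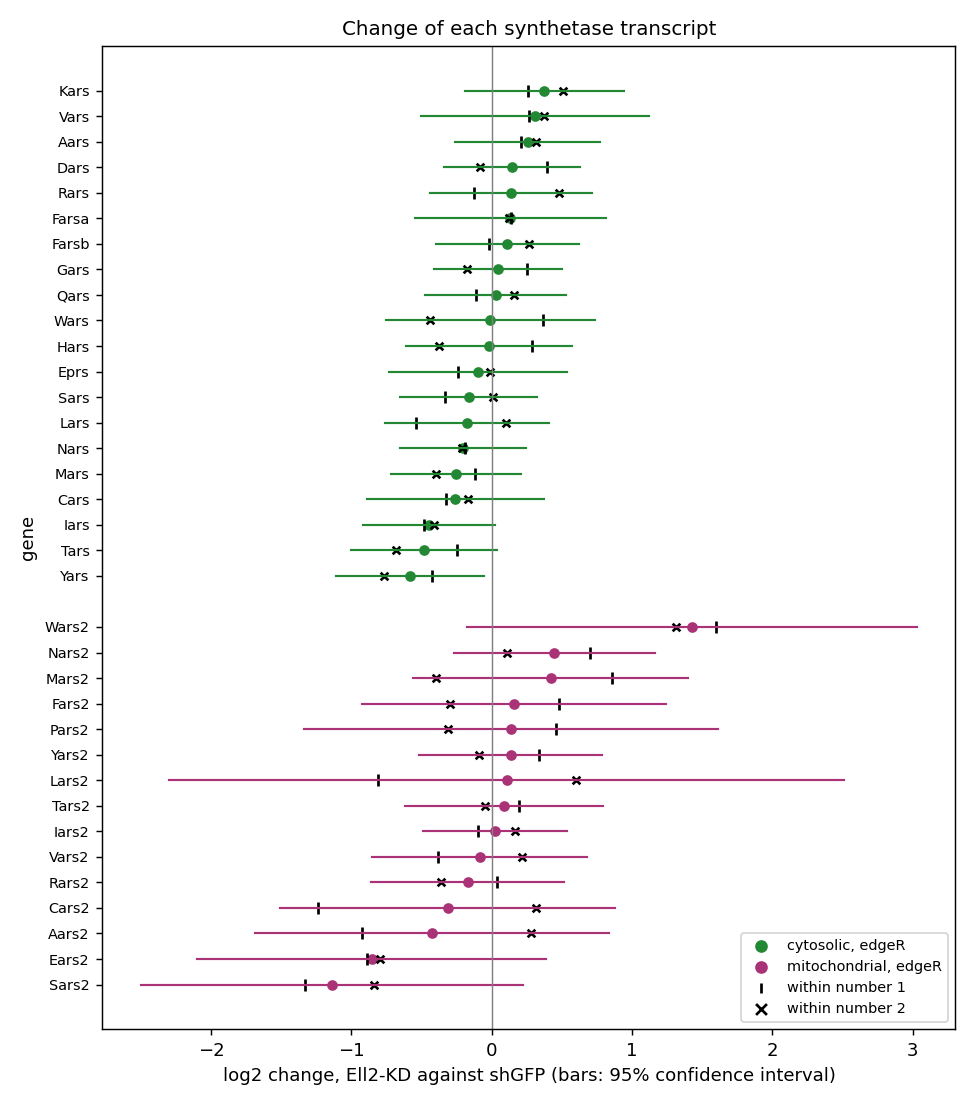
Log2 change of each synthetase transcript in Ell2-KD against shGFP (points, edgeR) with its 95% confidence interval, cytosolic genes in green above and mitochondrial genes in purple below. Black marks give the change within replicate number 1 (bar) and number 2 (cross); the interval of Yars alone leaves out 0, before any adjustment.

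The spread around these medians differed between the compartments. Cytosolic changes ran from -0.58 to 0.37 and mitochondrial changes from -1.14 to 1.43 on the log2 scale. The median standard error was 0.24 for cytosolic and 0.49 for mitochondrial genes. For 9 genes the groups did not overlap, 6 of them lower and 3 higher in the depleted cells. Among all tested genes 35.8% were separated in this way (18.5% lower and 17.4% higher). Lower were Iars, Mars, Nars, Tars, Yars and Sars2, and higher were Kars, Nars2 and Wars2.

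The cytosolic genes with the smallest p were Yars, Iars and Tars, which charge tyrosine, isoleucine and threonine. Yars stood at 255 and 248 CPM with shGFP against 190.2 and 145 CPM with Ell2-KD. Both depleted libraries lay below both controls, and the log2 change was -0.58 ± 0.24 (SE; 95% interval -1.11 to -0.05; edgeR adjusted p = 0.811). It was -0.43 within replicate number 1 and -0.77 within number 2.

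Iars stood at 343 and 347 CPM with shGFP against 246 and 261 CPM with Ell2-KD. The log2 change was -0.45 ± 0.21 (edgeR adjusted p = 0.860), the most even of these 3 across the libraries, at -0.48 within number 1 and -0.41 within number 2. Tars stood at 239 and 315 CPM with shGFP against 201 and 196 CPM with Ell2-KD, a log2 change of -0.48 ± 0.24 (edgeR adjusted p = 0.865). With any 1 library left out these 3 changes kept their sign, from -0.79 to -0.40 for Yars, -0.48 to -0.40 for Iars and -0.65 to -0.27 for Tars. The Yars exons overlap 30 bases of C77080 on the opposite strand. Counts for Iars and Tars are less certain, as their transcripts share stretches with other genes. The Iars transcript shares a stretch of 1656 bases at 90% identity or more with a processed pseudogene (Gm4849), and stretches of 60 bases or more with 155 genes in all. The Tars transcript shares shorter such stretches with 336 other genes.

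The promoters of these 3 genes are shown because all 3 hold the word TGATGCAA, or TTGCATCA on the other strand, a form of the composite C/EBP-ATF response element. ATF4, the transcription factor of the amino acid response, is known to bind such elements, and many cytosolic synthetase genes are known to be induced with it. RefSeq promoter windows (GRCm38.p6, 250 bases before to 50 after a start site) were matched for 27 of the 35 genes, 13 cytosolic and 14 mitochondrial. The word was found in 4 of the 13 cytosolic and 0 of the 14 mitochondrial genes, against 1.03% of all 27025 genes with a window (0.895% of 32851 windows). The fourth gene, Aars (alanine), had a positive change. The motif was chosen after the values were seen, and a match is no evidence of binding. Each line gives 150 bases before to 30 after the start site, 5′ to 3′ on the strand of the gene, with the word in capitals.
Yars (chr4:129189753-129189932, + strand): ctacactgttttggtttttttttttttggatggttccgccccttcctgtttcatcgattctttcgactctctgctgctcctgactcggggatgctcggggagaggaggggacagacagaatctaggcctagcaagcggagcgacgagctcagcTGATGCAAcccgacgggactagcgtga
Iars (chr13:49681980-49682159, + strand): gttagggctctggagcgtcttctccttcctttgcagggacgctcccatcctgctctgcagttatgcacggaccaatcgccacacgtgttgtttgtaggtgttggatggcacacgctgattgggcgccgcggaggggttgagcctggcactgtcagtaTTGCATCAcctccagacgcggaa
Tars (chr15:11399629-11399808, - strand): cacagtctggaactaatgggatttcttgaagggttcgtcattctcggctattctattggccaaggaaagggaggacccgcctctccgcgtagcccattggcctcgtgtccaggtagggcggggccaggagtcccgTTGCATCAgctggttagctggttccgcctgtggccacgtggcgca
Aars (chr8:111033692-111033871, + strand): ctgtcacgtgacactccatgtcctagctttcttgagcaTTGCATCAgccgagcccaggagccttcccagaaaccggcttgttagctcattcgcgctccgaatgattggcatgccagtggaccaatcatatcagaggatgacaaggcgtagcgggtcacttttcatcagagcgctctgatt

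In Yars and Iars the word begins 4 and 8 bases into the transcript, counting the start site as base 1. In Tars it begins at position -15, and in Aars at position -112. Aars stood at 250.4 and 198 CPM with shGFP against 289 and 246 CPM with Ell2-KD, a log2 change of 0.26 ± 0.24 (edgeR adjusted p = 0.967), with overlapping groups. Its exons overlap 1326 bases of Exosc6 on the same strand, a gene at 15.8 to 30.6 CPM.

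Kars had the largest positive change of the cytosolic genes. It stood at 137 and 108 CPM with shGFP against 163 and 154 CPM with Ell2-KD, a log2 change of 0.37 ± 0.26 (95% interval -0.19 to 0.94; edgeR adjusted p = 0.919). Both depleted libraries lay above both controls. Gars, the other gene that serves both compartments, had a change of 0.05 ± 0.21, with 624 and 664 CPM with shGFP against 742 and 587 CPM with Ell2-KD.

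Vars and Eprs differed more between replicate numbers than between groups. Vars, the valine enzyme, stood at 708 and 379 CPM with shGFP against 851 and 492 CPM with Ell2-KD. Eprs stood at 914 and 1355 CPM with shGFP against 775 and 1347 CPM with Ell2-KD. In both genes the libraries of 1 number lay together: Vars was high in number 1 and Eprs in number 2. Mars (methionine) stood at 423 and 440.1 CPM against 389 and 335 CPM, and Nars (asparagine) at 436 and 467 against 382 and 404. For these last 2 genes both depleted libraries lay below both controls, with log2 changes of -0.25 ± 0.21 and -0.20 ± 0.20 (edgeR adjusted p = 0.959 and 0.9749). Wars stood at 52.0 and 62.3 CPM with shGFP against 67.2 and 46.0 CPM with Ell2-KD, so the groups overlapped fully. Its log2 change was -0.01 with a 95% interval from -0.75 to 0.74, 0.37 within number 1 and -0.44 within number 2. The other 9 cytosolic genes (Cars, Dars, Farsa, Farsb, Hars, Lars, Qars, Rars and Sars) had changes from -0.26 to 0.15, all with overlapping groups.

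In mammalian cells 8 of these cytosolic genes encode enzymes of the multisynthetase complex, held together by the scaffold proteins Aimp1, Aimp2 and Eef1e1. The complex genes (Dars, Eprs, Iars, Kars, Lars, Mars, Qars and Rars) had 4 positive and 4 negative changes with a median of -0.03, and the 12 cytosolic genes outside the complex a median of -0.01. Among the scaffolds, Aimp1 stood at 176 and 205 CPM with shGFP against 186 and 215 CPM with Ell2-KD. Aimp2 stood at 47.5 and 81.0 CPM against 53.7 and 91.0 CPM, high in number 2 in both groups. Eef1e1 stood at 107 and 91.7 CPM against 121 and 80.8 CPM. None passed the test, and the log2 changes were 0.07 ± 0.24, 0.17 ± 0.38 and 0.03 ± 0.30.

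Of the mitochondrial genes Wars2, the tryptophan enzyme, had the largest estimated change, on few counts. Its counts were 30 and 52 with shGFP against 160 and 89 with Ell2-KD, or 3.58 and 10.3 against 11.3 and 26.1 CPM. Both depleted libraries lay above both controls, though the first depleted library barely above the second control. The log2 change was 1.43 ± 0.73 (95% interval -0.17 to 3.03; edgeR adjusted p = 0.871). It was 1.60 within number 1 and 1.31 within number 2, and ran from 0.73 to 2.36 with 1 library left out. The Wars2 transcript shares stretches of up to 181 bases with 108 other genes, so its counts are uncertain.

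Sars2, the serine enzyme, had the largest estimated decrease. It had 162 and 67 counts with shGFP against 106 and 25 with Ell2-KD, or 19.3 and 13.3 against 7.52 and 7.32 CPM. Both depleted libraries lay below both controls, with a log2 change of -1.14 ± 0.62 (95% interval -2.50 to 0.23; edgeR adjusted p = 0.879). Ears2, the glutamate enzyme, stood at 34.9 and 16.5 CPM with shGFP against 18.7 and 9.37 CPM with Ell2-KD. Its groups overlapped, with a log2 change of -0.85 ± 0.56 (edgeR adjusted p = 0.916). The differences within replicate numbers, which do not pair the samples in the labels, were -0.89 and -0.80. The Ears2 exons overlap 89 bases of Ubfd1 on the opposite strand, a gene at 184 to 273 CPM.

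Nars2, the asparagine enzyme, stood at 63.2 and 59.5 CPM with shGFP against 103 and 64.1 CPM with Ell2-KD (log2 change 0.45 ± 0.32; edgeR adjusted p = 0.945). The first depleted library stood apart, and the second lay just above the controls. Mars2, the methionine enzyme, was high in the same library, at 54.1 and 46.0 CPM against 98.2 and 34.8 CPM. Cars2 had 1 low library, Ell2-KD replicate 1 at 11.1 CPM, where the other 3 lay between 24.6 and 30.7 CPM. The exons of Cars2 overlap those of Carkd (also called Naxd) by 422 bases on the opposite strand, and Carkd stood at 31.0 and 25.4 CPM with shGFP against 12.5 and 16.4 CPM with Ell2-KD. The other 8 mitochondrial genes (Aars2, Fars2, Iars2, Pars2, Rars2, Tars2, Vars2 and Yars2) had changes from -0.43 to 0.16, all with overlapping groups. Of these, Iars2 overlaps 2034 exon bases of Rab3gap2 on the opposite strand; it stood at 218 to 282 CPM and Rab3gap2 at 94.9 to 106 CPM.

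Each mitochondrial gene was then set against the cytosolic gene for the same amino acid, in 16 pairs that count Fars2 against both Farsa and Farsb, and Eprs against both Ears2 and Pars2. Per kilobase, the mitochondrial partner was lower in all 4 libraries in 15 pairs and higher in all 4 in the Lars2 pair. With coding length in place of transcript length it was lower in all 4 in 14 pairs, and Iars2 lay above Iars in 3 of 4 libraries (1.03-fold and 0.783-fold with shGFP, 1.34-fold and 1.17-fold with Ell2-KD). The ratio lay nearest to even for isoleucine and tyrosine. Iars exceeded Iars2 by 1.503-fold and 1.97-fold with shGFP, and by 1.15-fold and 1.31-fold with Ell2-KD. Yars exceeded Yars2 by 2.03-fold and 1.83-fold with shGFP, and by 1.19-fold and 1.15-fold with Ell2-KD. It was farthest for proline, where Eprs exceeded Pars2 by 61.0-fold and 88.3-fold with shGFP against 37.3-fold and 110-fold with Ell2-KD.

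**Figure D3:**
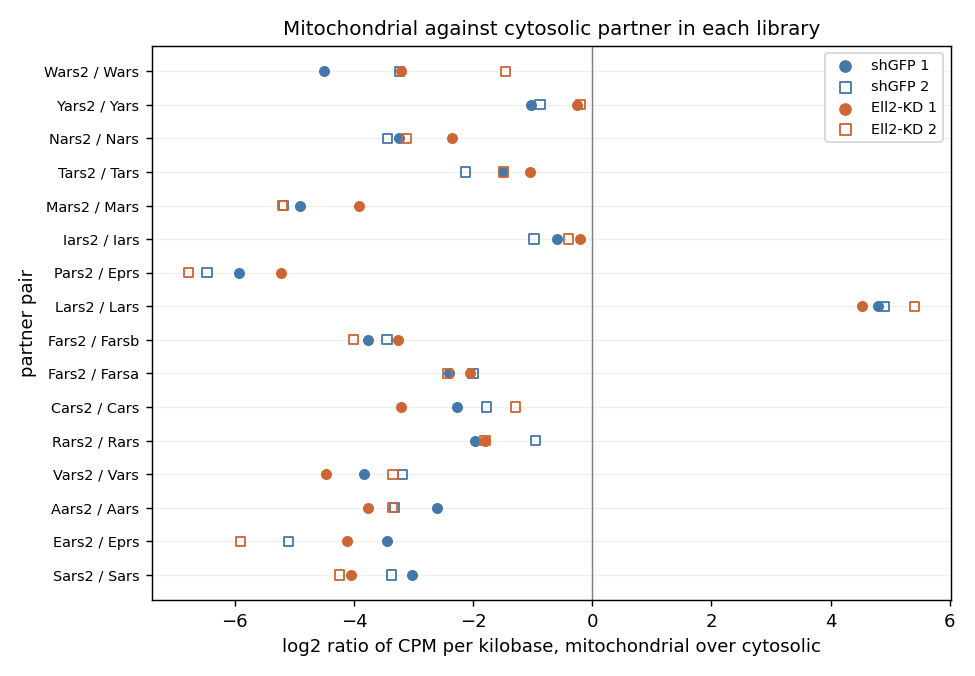
Log2 ratio of the mitochondrial to the cytosolic partner in each library, from CPM per kilobase, for 16 pairs ordered by the difference between groups. Orange marks (Ell2-KD) lie to the right of both blue marks (shGFP) for Wars, Yars, Nars, Tars and Iars, and to the left for Sars and Aars; Lars2 is the 1 partner above 0.

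In 7 of the 16 pairs the ratio did not overlap between groups, 5 toward the mitochondrial partner and 2 toward the cytosolic one. Of single genes 35.8% were separated between the groups, but a ratio of 2 genes is a different measure. How often ratios of other gene pairs separate was not computed. The ratios and their directions are therefore given as a description, with no test. The tyrosine ratio differed by 0.72 on the log2 scale (0.77 in the pair numbered 1 and 0.68 in that numbered 2), with Yars2 at 68.0 and 73.0 CPM with shGFP against 86.1 and 68.5 with Ell2-KD. The threonine ratio differed by 0.54, with Tars2 at 68.4 and 58.1 CPM against 78.2 and 56.2 CPM. The Tars2 transcript shares stretches of up to 84 bases with 20 other genes. The isoleucine ratio differed by 0.48, with Iars2 at 282 and 218 CPM against 264 and 245 CPM. In these 3 pairs the cytosolic gene is one of the 3 with the smallest p described above, none of which passed the test, and the mitochondrial partner overlapped between groups. The tryptophan ratio differed by 1.54, from Wars exceeding Wars2 by 22.6-fold and 9.41-fold to 9.22-fold and 2.75-fold. The asparagine ratio differed by 0.60. Toward the cytosolic partner, the serine ratio differed by -0.95, with Sars at 300.5 and 262 CPM with shGFP against 239 and 264 CPM with Ell2-KD, and the alanine ratio by -0.59.

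Synthetases fall into 2 classes with unrelated catalytic folds, class I with a Rossmann fold and class II with an antiparallel sheet. Eprs, whose product joins the glutamate and proline activities, was counted in class I only. The 19 class I genes had 8 positive and 11 negative changes with a median of -0.08, and the 16 class II genes 10 positive and 6 negative with a median of 0.10. Among cytosolic genes the medians were -0.14 for class I and 0.08 for class II. Within replicate number 1 the medians over both compartments were -0.12 and 0.20, and within number 2 they were -0.01 and -0.07, so the order of the classes was not kept.

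Genes that act beside the synthetases gave no member past the test either. Other genes of the family and of tRNA editing had 8 tested members with a median log2 change of 0.03. Among them Tarsl2, a second threonine enzyme gene, stood at 47.1 and 54.6 CPM with shGFP against 56.6 and 72.0 CPM with Ell2-KD. Pstk, a kinase that acts on selenocysteine tRNA, had a change of 0.42 ± 0.44. Genes that modify, formylate or transamidate mitochondrial tRNA had 4 positive and 5 negative changes with a median of -0.03. Mto1, a modifier of mitochondrial tRNA wobble bases, had a change of -0.58 ± 0.41 and Gatc, a subunit of the glutamyl-tRNA amidotransferase, -0.86 ± 0.68.

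Translation factors downstream of charging had changes of both signs. Of 35 cytosolic initiation factors 23 were positive, with a median of 0.06, and Eif3h, a subunit of the factor eIF3, stood at 263 and 251 CPM with shGFP against 376 and 343 CPM with Ell2-KD (edgeR adjusted p = 0.830). Eif5, which promotes GTP hydrolysis by eIF2, stood at 677 and 642 against 808 and 885 CPM. Of 10 tested cytosolic elongation and termination factors 9 were positive, with a median of 0.14, among them Eef2k, the kinase of elongation factor eEF2 (0.63 ± 0.40), and Eef1d, a subunit of the exchange factor for eEF1A (0.23 ± 0.26). Of 10 mitochondrial translation factors 5 were positive, with a median of -0.10. Mtrf1, a mitochondrial release factor family gene, had 81 and 42 counts with shGFP against 0 and 10 with Ell2-KD (edgeR adjusted p = 0.899). Mtrf1l, of the same list, had the same 81 and 42 counts with shGFP but 155 and 46 with Ell2-KD (log2 change 0.44 ± 0.64). Why the control counts of these genes were identical was not tested, so both changes are uncertain. Mtif2, the mitochondrial initiation factor, had a change of -0.64 ± 0.37.

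**Figure D4:**
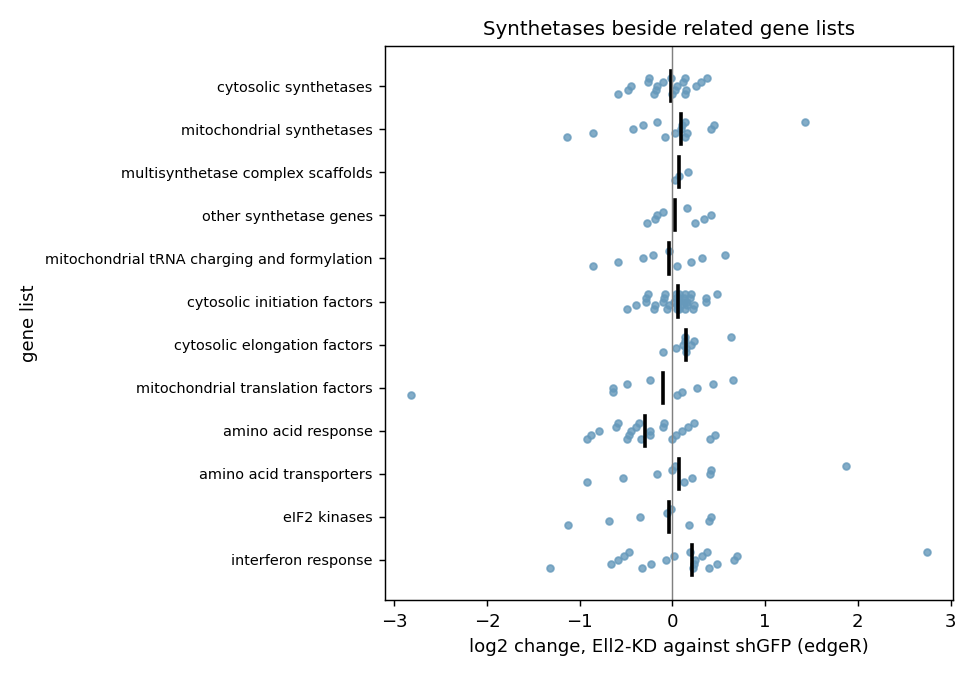
Log2 change in Ell2-KD against shGFP for each tested gene of the 2 synthetase sets and of 10 related lists, with the median of each list as a black bar. The amino acid response list has its median at -0.29, while the cytosolic and mitochondrial synthetases have theirs at -0.01 and 0.09.

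The amino acid response, which is run by ATF4 and includes many cytosolic synthetases among its known targets, was represented by 24 other genes. Of 22 tested, 7 changes were above 0 and 15 below, and the median was -0.29. Replicates numbered 1 gave -0.21 and those numbered 2 gave -0.23, and 0 passed the edgeR test; 1 had an unadjusted p below 0.05. That gene was Shmt2, which makes glycine in mitochondria, at 262 and 250.4 CPM with shGFP against 203 and 138 CPM with Ell2-KD (edgeR adjusted p = 0.830). Stc2, a secreted stress-induced glycoprotein, had a change of -0.92 ± 0.52. Atf4 itself stood at 321 and 248.8 against 276 and 156 CPM, and Asns, the asparagine synthetase and a standard readout of the pathway, at 511 and 698 against 581 and 544 CPM; the groups overlapped for both. Ddit3 (CHOP), whose exons overlap those of Mars by 68 bases on the opposite strand, had 36 and 18 counts with shGFP against 1 and 20 with Ell2-KD. Of 23 genes of this list with a RefSeq promoter window, 6 (Atf3, Chac1, Got1, Nupr1, Pycr1 and Vldlr) held the word printed above.

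Amino acid supply and sensing gave single genes with small p. Of 10 tested amino acid transporters 7 were positive, with a median of 0.08. Slc43a1, a carrier of large neutral amino acids, stood at 5.72 and 7.94 CPM with shGFP against 21.1 and 29.0 CPM with Ell2-KD (log2 change 1.87 ± 0.56; edgeR adjusted p = 0.596). Slc7a11, the cystine carrier, stood at 63.2 and 72.4 against 47.0 and 23.7 CPM (log2 change -0.92 ± 0.39; edgeR adjusted p = 0.830). The 8 kinases and regulators of eIF2 had a median of -0.04; Eif2ak3, the ER stress kinase PERK, stood at 202 and 165 against 221 and 264 CPM, and Ppp1r15a, the eIF2 phosphatase subunit GADD34, had a change of -1.13 ± 0.82. Since Wars is an interferon-responsive gene, 29 interferon response genes were also counted, of which 20 were tested, with 12 positive and 8 negative changes. Their median was 0.21, from 0.38 in the pair numbered 1 and -0.21 in the pair numbered 2. Irf1, a transcription factor of this response, stood at 50.9 and 84.7 against 111 and 109 CPM (edgeR adjusted p = 0.853), and Mx1, an antiviral GTPase, had 1 and 4 counts against 35 and 12.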

How the data were processed

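The authors deposited 1 table of whole-number read counts per gene symbol for each of the 4 libraries, per the file headers, and these were treated as raw counts. Per the labels' protocols, total RNA was read on a SOLiD instrument. Of tools, the submitters' processing notes list DESeq 1.4.1, HTSeq 0.5.3 and SAMtools 0.1.11, with mm9 as the build. For the aligner, the annotation and the strand setting the sources used here give nothing, so reads of genes that overlap on opposite strands could not be told apart. Exons of 12 of the 35 synthetase genes overlap another gene in GENCODE M21.

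Tests on these counts used edgeR 4.0.16 (R 4.3.3): filterByExpr (minimum count 10, minimum total 15), TMM scaling, the robust quasi-likelihood fit with group as the only term, a two-sided test and Benjamini-Hochberg adjustment over 11027 genes (threshold 0.05). The standard error is the log2 change divided by the square root of F. Changes within a replicate number are differences of log2 CPM (prior count 2). The test was tried on simulated counts. DESeq2 1.42.0, other scalings and filters, the replicate number as a block and leaving out each library were alternatives.

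Lengths are of the longest coding transcript with a RefSeq mRNA in GENCODE M21 (GRCm38), used only for length. Shared stretches (at least 60 bases at 90% identity) were found with BLAST 2.17.0 among its transcripts. Promoters and their printed coordinates are from RefSeq, GRCm38.p6, which differs from the mm9 build of the counts. The members and gene lists were chosen with earlier results of these data known. All synthetase genes are named; those given in full are Lars2, Wars, the 4 with the smallest p in each compartment and their partners, and of each related list the 2 genes with the smallest p and a few fixed ones. Ranges, overlaps and other single genes are named after their values were seen.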

Additional observations from a re-analysis of the deposited data

How the results depend on the processing

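With 2 libraries a group, the median standard error was 0.49 on the log2 scale for mitochondrial synthetases and 0.24 for cytosolic ones. The replicate numbers do not pair the samples in the labels, and libraries of 1 number deviated together with a correlation of 0.31. With the replicate number as a block, edgeR called 28 of all genes against 5 without it, and 0 synthetases. At an unadjusted edgeR p below 0.05 there were 4 of 35 synthetases and 1168 of 11027 genes with the block. Without the block these were 1 and 642. The block gave a median of -0.022 over all synthetases and a change of -0.10 for Lars2. The fits with 1 library left out called 14 to 142 of all genes, where the arm left with 1 library is assumed to vary like the other. They called 0 to 1 synthetases: Lars2 passed without Ell2-KD replicate 2 (-0.91; edgeR adjusted p = 0.0146; over its alternatives 0.0146 to 1.00), and no synthetase passed in any other alternative. Counts over all genes were 22 with no filter, 43 with DESeq2, 2 with library totals only and 2 with a stricter filter (5 CPM in 2 libraries). The all-gene median was -0.027 with upper quartile scaling and 0.024 with no filter, where the cytosolic and all-synthetase medians were 0.062 and 0.069. With 1 library left out, medians ran from -0.12 to 0.052 (cytosolic), -0.17 to 0.13 (mitochondrial), -0.13 to 0.083 (all synthetases) and -0.045 to 0.038 (all genes), and cytosolic minus mitochondrial from -0.16 to 0.055. Other sign changes were Iars2 at -0.00011 with upper quartile scaling, Hars at 0.059 and Wars at 0.072 with no filter, and Wars at 0.00095 with DESeq2. With 1 library left out, log2 changes that took both signs ran from -0.53 to 0.088 for Cars, -0.018 to 0.35 for Dars, -0.54 to 0.25 for Eprs, -0.10 to 0.37 for Farsa, -0.049 to 0.30 for Farsb, -0.13 to 0.21 for Gars, -0.31 to 0.23 for Hars, -0.58 to 0.15 for Lars, -0.10 to 0.16 for Qars, -0.15 to 0.52 for Rars, -0.14 to 0.84 for Vars, -0.31 to 0.24 for Wars, -0.86 to 0.21 for Aars2, -1.19 to 0.26 for Cars2, -0.31 to 0.50 for Fars2, -0.15 to 0.23 for Iars2, -0.91 to 0.70 for Lars2, -0.52 to 0.98 for Mars2, -0.30 to 0.46 for Pars2, -0.33 to 0.013 for Rars2, -0.17 to 0.31 for Tars2, -0.25 to 0.079 for Vars2 and -0.040 to 0.30 for Yars2. After the data were seen, coding length was tried, which gave a log2 gap of 2.50 between the cytosolic and mitochondrial median levels in place of 2.82, and the share of mitochondrial synthetases without Lars2, which was 0.0732% (shGFP) and 0.0758% (Ell2-KD). The cause of these shifts was not tested.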
